A study of Bubalus bubalis with 6 samples.

Results

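The 10 genes examined belong to the class II myosin heavy chain family and were read from RNA-seq counts of water buffalo (Bubalus bubalis) muscle stem cells. The members are MYH1, MYH3, MYH4, MYH6, MYH7, MYH7B, MYH8, MYH9, MYH10 and MYH11, taken as the rows of the gene table that carry these symbols, and all 10 were found among its 24616 genes. The GM group holds 3 samples of proliferating cells kept in growth medium with fetal bovine serum. The DM group holds 3 samples of such cells after a switch, near confluence, to differentiation medium with a low level of horse serum, in which they fuse into myotubes. According to the methods of the study, the cells were primary cultures from fetal longissimus muscle, and such a culture can also hold cells that do not fuse. The labels name no allele, transgene or drug in either group. The labels do not say whether the 3 samples of a group came from separate animals or cultures, so p-values measure the spread between these samples only, which may be technical.

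Myosin heavy chains are the motors that pull on actin. Sarcomeric heavy chains build the thick filaments of striated muscle, and skeletal muscle changes which of them it uses as it matures: MYH3 encodes the embryonic chain and MYH8 the perinatal one, MYH1 and MYH4 encode chains of adult fast fibres, and MYH7 encodes the chain of slow fibres, which the heart uses as well. MYH6 encodes the alpha chain of the heart, and MYH7B encodes a chain that is related to both. MYH9 and MYH10 encode non-muscle myosins IIA and IIB, which work in cell shape, migration and cytokinesis in nearly every cell, and MYH11 encodes the smooth muscle chain. The heavy chains are long and alike in coding sequence, above all within the sarcomeric group, so reads could have been divided between genes by the counting, and this was not tested.

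Each sample held 35615864 to 40305237 gene counts. Of the markers of muscle stem cells, 10 were tested and 4 were called lower in DM samples by the rule given below, where 10.3% of all tested genes were. MET and MYF5 changed most (-3.15 and -2.70 on the log2 scale). PAX7, the factor that marks these cells, was at -0.92, inside the 2-fold limit. MYOD1, on the same list, was higher at 0.90, also inside that limit. Fibroblast markers moved the other way from the 4 lower markers. Among 11 tested, 8 were called higher in DM samples, where 15.0% of all tested genes were. DCN and FAP changed most (2.37 and 2.31). The summed level of the 12 listed markers was 35586 to 36339 CPM (counts scaled to a fixed library size) in GM samples, 124197 in DM1, 113593 in DM2 and 98278 in DM3. In such bulk samples, fewer cells of a type and less RNA per cell cannot be told apart. The part of the fibroblast markers in the results on myosin genes was not tested.

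All 7 sarcomeric members rose in DM samples, and the 3 others stayed within a 2-fold change. The test was edgeR's quasi-likelihood F test on 15576 genes, and a call needed both a change of over 2-fold and an adjusted p (Benjamini-Hochberg) under 0.05. By this rule 7 of the 10 members were called, all higher in DM, where 15.0% of all tested genes were called higher, 10.3% lower and 25.3% in either direction. The median log2FC of the 10 members was 3.11, beside 0.03 for all tested genes. MYH1, with 4 counts in GM samples, reached the minimum of 10 counts through its DM samples and could only be called higher, and without it 6 of 9 members were called and the median was 2.58. GM and DM samples did not overlap in CPM for any of the 10 members, 8 of them higher and 2 lower in DM, but 68.8% of all tested genes did not overlap either, 34.5% higher and 34.3% lower. Each member reached an adjusted p under 0.05, 8 of them higher and 2 lower, as did 63.0% of all tested genes, 31.6% higher and 31.4% lower. CPM values here use TMM-normalized library sizes. The log2 fold change of DM over GM is written log2FC and given with its standard error (SE).

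**Figure D1:**
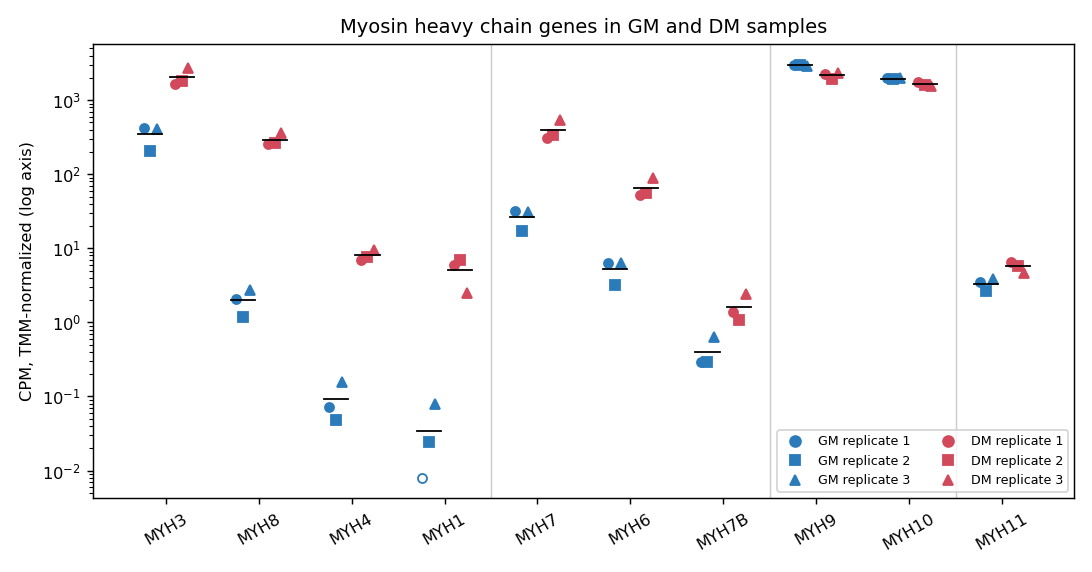
Level of the 10 heavy chain genes in each sample, as CPM on a log axis, with GM samples in blue, DM samples in red and the group mean as a black line; the open circle is GM1, where MYH1 had 0 counts. The sarcomeric genes at left and centre sit higher in every DM sample than in every GM sample, while MYH9 and MYH10 lie between 1560 and 3021 CPM in all 6 samples.

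The embryonic gene MYH3 (ENSBTAG00000011803, chromosome 19, 30230160 to 30251091, minus strand; the table names no genome build) was the sarcomeric member with the most counts in both groups. It held 17334 counts in GM1, 8605 in GM2 and 15710 in GM3, against 55632 in DM1, 67229 in DM2 and 100193 in DM3. GM2 stood below the other GM samples and DM3 above the other DM samples, and the lowest DM sample was still far above every GM sample. Its level went from 346 ± 121 CPM to 2064 ± 566 CPM (SD, n = 3 each), a 5.96-fold rise (log2FC 2.58, SE 0.26, adjusted p = 9.50e-06). The cells in growth medium thus already held many MYH3 reads.

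MYH8 (ENSBTAG00000009702, chromosome 19, 30031040 to 30059203, minus strand) started from a far lower level. It had 86, 49 and 105 counts in GM1, GM2 and GM3 and 8556, 9576 and 13306 counts in DM1, DM2 and DM3. The order of the samples within each group put GM2 lowest and DM3 highest, as for MYH3. Its fold change was 146 (log2FC 7.19, SE 0.24, adjusted p = 5.79e-09).

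The adult fast genes MYH4 and MYH1 stayed at low levels in DM samples, although their fold changes were large. MYH4 (ENSBTAG00000037794, chromosome 19, 30080604 to 30103436, minus strand) had 3, 2 and 6 counts in GM1, GM2 and GM3 and 233, 280 and 356 counts in DM1, DM2 and DM3. The ratio of its summed counts, scaled to library size, was 89.0, with a 95% counting interval of 49.5 to 179 (exact binomial). edgeR gave a log2FC of 6.42 (SE 0.33, adjusted p = 5.89e-08), and the DM mean was 8.06 ± 1.41 CPM. MYH1 (ENSBTAG00000018204, chromosome 19, 30110728 to 30134757, minus strand) had 0, 1 and 3 counts in GM samples and passed the minimum of 10 counts through its DM samples. In DM1, DM2 and DM3 it had 200, 258 and 92 counts. DM3, which was highest for MYH3, MYH8 and MYH4, was lowest for MYH1, at 0.38 times the mean CPM of the other DM samples. The ratio of summed MYH1 counts was 155 with a counting interval of 60.2 to 571, and the log2FC was 7.14 (SE 0.64, adjusted p = 3.54e-06) and 8.39 without GM replicate 3. These intervals cover counting error only.

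The adult fast, perinatal and embryonic genes lie side by side on chromosome 19 in the table, together with MYH13, whose chain is known from the muscles of the eye. MYH13 had 4 counts in all GM samples together and 12, 19 and 20 in DM1, DM2 and DM3, a ratio of 14.4 (counting interval 5.28 to 54.7), with a log2FC of 3.70 that was 4.96 without GM replicate 3. It passed the minimum through its DM samples and could only be called higher. Between MYH1 and MYH3, on the same strand, the table lists ENSBTAG00000007090 (30137767 to 30165109) with neither symbol nor description. This gene, named after its values were seen, had 2, 2 and 1 counts in GM samples and 773, 911 and 700 in DM samples, a ratio of 537 (counting interval 230 to 1656). With 22.2 ± 3.04 CPM in DM samples it stood above MYH4 and MYH1 and below MYH8. MYH2 and MYH16 were looked up by symbol and not found among the 24616 genes, so neither has a value under its symbol. The length listed for ENSBTAG00000007090 is 6096 bases, beside 5987 for MYH1 and 6109 for MYH3. Whether this unnamed row holds the counts of a heavy chain that lacks its symbol, such as MYH2, was not tested. The levels and shares of adult fast genes given here thus cover MYH1 and MYH4 alone, and may leave out another adult fast gene.

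MYH7, the slow chain (ENSBTAG00000009703, chromosome 10, 21325414 to 21345624, plus strand), had 1318, 712 and 1184 counts in GM1, GM2 and GM3. In DM1, DM2 and DM3 it had 10532, 12457 and 19933. Every DM sample was thus several times above the highest GM sample, and the mean moved from 26.7 ± 8.31 to 397 ± 124 CPM (log2FC 3.89, SE 0.26, adjusted p = 4.42e-07). Its row encloses bta-mir-208b on the same strand, which had 0 counts in GM samples and 0, 5 and 2 counts in DM samples, under the minimum for a test.

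MYH6, the cardiac alpha chain (ENSBTAG00000040053, chromosome 10, 21350297 to 21377051, plus strand), lies next to MYH7. It had 261, 133 and 238 counts in GM1, GM2 and GM3 and 1758, 2052 and 3245 counts in DM1, DM2 and DM3, a log2FC of 3.64 (SE 0.26, adjusted p = 6.89e-07). The ratio of the pair varied little between replicates and was somewhat lower in each DM sample than in each GM sample. There were 19.8, 18.7 and 20.1 counts of MYH6 per 100 of MYH7 in GM1, GM2 and GM3, and 16.7, 16.5 and 16.3 in DM1, DM2 and DM3. The 2 genes are close relatives in sequence, and how far reads of one were counted on the other was not tested. Of 13 cardiomyocyte markers, 6 were tested and 4 were called higher in DM samples, where 15.0% of all tested genes were. MYBPC3 (6.32) and TNNT2 (3.74), a troponin T that immature skeletal muscle also uses, changed most. The other called markers were TNNI3 (3.73), the cardiac troponin I, and TBX20 (2.02), a transcription factor of the heart, both named after their values were seen. TNNI3 had 0, 2 and 5 counts in GM samples and 14, 6 and 69 in DM samples, passed the minimum through its DM samples, and was at 4.91 without GM replicate 3 and 2.25 without DM replicate 3. TBX20 had 7, 9 and 9 counts in GM samples and 15, 37 and 40 in DM samples. TBX5 and RYR2 were tested and not called. TBX5, a heart factor, had 43 to 66 counts per sample and a log2FC of 0.58. RYR2 had 16, 21 and 20 counts in GM samples and 17, 12 and 15 in DM samples, a log2FC of -0.20. Without TNNI3, 3 of 5 tested markers were called, all higher, with a median of 2.02. MYBPC3 had 9, 1 and 2 counts in GM samples, and its log2FC was 7.63 without GM replicate 1. The markers NPPB, HAND1 and MYL7 had 0 counts in all 6 samples, GATA4 and NPPA had 1 count each in all samples together, and NKX2-5 had 1 count in each GM sample and 0 in DM samples. The summed level of the 13 markers was 21.4 to 38.0 CPM in GM samples and 374 to 425 CPM in DM samples, nearly all of it TNNT2 (392 ± 26.3 CPM in DM samples).

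MYH7B (ENSBTAG00000003512, chromosome 13, 64888626 to 64912758, plus strand) had 12, 12 and 24 counts in GM1, GM2 and GM3 and 47, 39 and 89 counts in DM1, DM2 and DM3. It was the least abundant sarcomeric member in DM samples, at 1.62 ± 0.699 CPM. Its log2FC was 2.01 (SE 0.44, adjusted p = 0.00222), was 1.62 to 2.48 with single samples left out and was 1.42 without GM2 and DM3 together. The bta-mir-499 row that lies inside it had 0 counts in every sample.

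**Figure D2:**
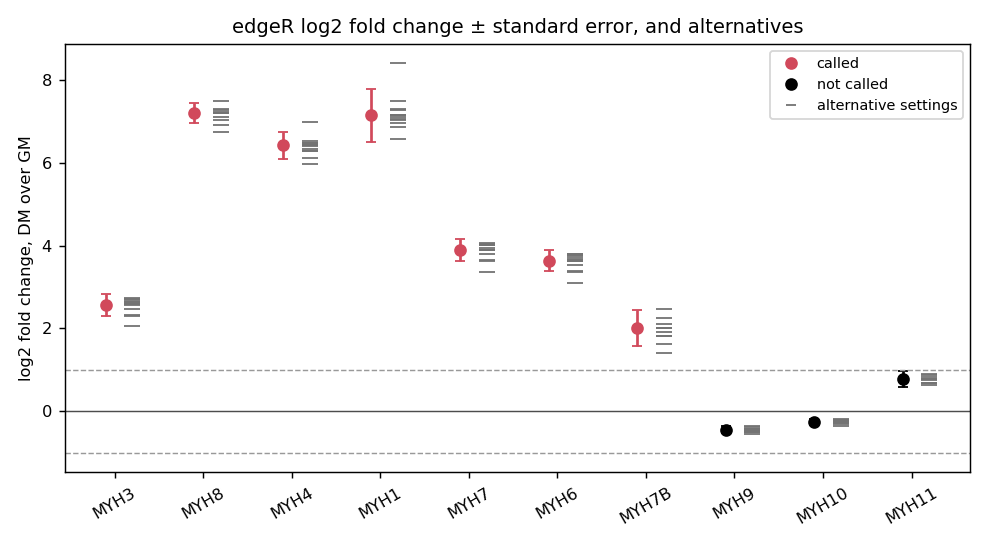
Log2 fold change of each member, DM over GM, with its standard error (circles, red where called and black where not) and under the alternative settings (grey dashes); broken lines mark the limits at -1 and 1. The 7 sarcomeric genes keep values above 1 under each setting that tested them, MYH9 and MYH10 stay between 0 and -1, and MYH11 stays between 0 and 1.

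The non-muscle genes were lower in DM samples by less than the 2-fold limit. MYH9 (ENSBTAG00000010402, chromosome 5, 75094866 to 75179909, minus strand) had 125286, 123803 and 109166 counts in GM1, GM2 and GM3 and 76150, 70254 and 87445 in DM1, DM2 and DM3. Its mean was 2959 ± 72.4 CPM in GM samples and 2179 ± 231 CPM in DM samples, a log2FC of -0.44 (SE 0.08, adjusted p = 0.000612). MYH10 (ENSBTAG00000021151, chromosome 19, 28680825 to 28800880, minus strand) had 82540, 79546 and 75005 counts in GM samples and 60034, 58698 and 57733 in DM samples, with a log2FC of -0.25 (SE 0.07, adjusted p = 0.00662). Neither was called. Their values varied less between replicates than those of the sarcomeric genes. The coefficient of variation of CPM within GM samples was 2.45% for MYH9 and 2.15% for MYH10, and 34.9% for MYH3. Within DM samples the difference was smaller, with 10.6% for MYH9, 6.97% for MYH10 and 27.4% for MYH3. The lowest sarcomeric value there was 17.5% (MYH4). There were 65.9, 64.3 and 68.7 counts of MYH10 per 100 of MYH9 in GM1, GM2 and GM3, and 78.8, 83.6 and 66.0 in DM1, DM2 and DM3, so that DM3 fell within the GM range.

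The smooth muscle gene MYH11 (ENSBTAG00000015988, chromosome 25, 14218281 to 14343745, minus strand) was scarce in both groups, with 147, 109 and 144 counts in GM1, GM2 and GM3 and 220, 214 and 174 in DM1, DM2 and DM3. Its log2FC was 0.78 (SE 0.20, adjusted p = 0.00554), below the limit for a call. NDE1 overlaps it on the plus strand and held 1804 to 3758 counts per sample, with a log2FC of -0.58. Whether the counting used strand is not given in the sources used here, so reads in the overlap could belong to either gene. Of 12 smooth muscle markers tested, 2 were called higher and 2 lower, where 15.0% of all tested genes were called higher and 10.3% lower. Their median was -0.10. Without MYOCD and RGS5, which passed the minimum through GM samples, 2 of 10 were called higher and 1 lower, with a median of 0.07. The higher ones were MYLK, the myosin light chain kinase, from 75, 66 and 66 counts to 641, 730 and 1177 (3.78), and LMOD1 (1.09), whose call was lost with library size alone. SMTN (-1.07) was lower, with its call lost when GM2 and DM3 were both left out. MYOCD, the coactivator that drives smooth muscle genes, was the other lower one and had 26, 3 and 8 counts in GM samples and 1, 1 and 0 in DM samples, and lost its call without GM replicate 1 (log2FC -2.70, adjusted p = 0.0711, against -3.81 with all samples). The summed level of the 12 markers was 7339 to 7672 CPM in GM samples and 6696 to 7618 CPM in DM samples.

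Of the other heavy chain genes in the table, neither MYH14 nor MYH15 was higher in DM samples. MYH14, the gene of non-muscle myosin IIC, had 563, 537 and 583 counts in GM samples and 358, 380 and 165 in DM samples, a log2FC of -0.72 that was not called and was -0.40 without DM replicate 3. MYH15, which is not counted among the 7 sarcomeric members, fell by 1.47 on the log2 scale, from 64, 62 and 55 counts to 16, 11 and 31 (adjusted p = 0.00551).

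The make-up of the heavy chain counts differed more between GM and DM samples than their sum did. The 10 members together took 0.568, 0.528 and 0.550% of gene counts in GM1, GM2 and GM3 and 0.599, 0.594 and 0.740% in DM1, DM2 and DM3. The 7 sarcomeric genes held 8.38, 4.47 and 8.57% of the 10 members' counts in GM1, GM2 and GM3, and 36.1, 41.6 and 48.6% in DM1, DM2 and DM3. MYH9 and MYH10 held the rest but for MYH11, with 92.8 ± 2.32% in GM samples and 57.8 ± 6.24% in DM samples (SD, n = 3 each). MYH9 alone went from 55.8 ± 2.06 to 32.8 ± 2.53% and MYH3 from 6.49 ± 2.12 to 30.6 ± 4.70%. GM2 had the smallest sarcomeric share and DM3 the largest. DM3 was also the sample with the lowest summed level of fibroblast markers among DM samples. An exact two-sided permutation test gave p = 0.1 for the sarcomeric share, the smallest that 3 samples against 3 allow, and 0.108 after adjustment over the 14 shares tested, so this test could not reach 0.05. Each sum rests on 201585 to 282566 counts. GM samples held 19014, 9514 and 17270 sarcomeric counts, and the share of GM1, for instance, has a 95% Wilson interval of 8.26 to 8.49%, for counting error alone.

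**Figure D3:**
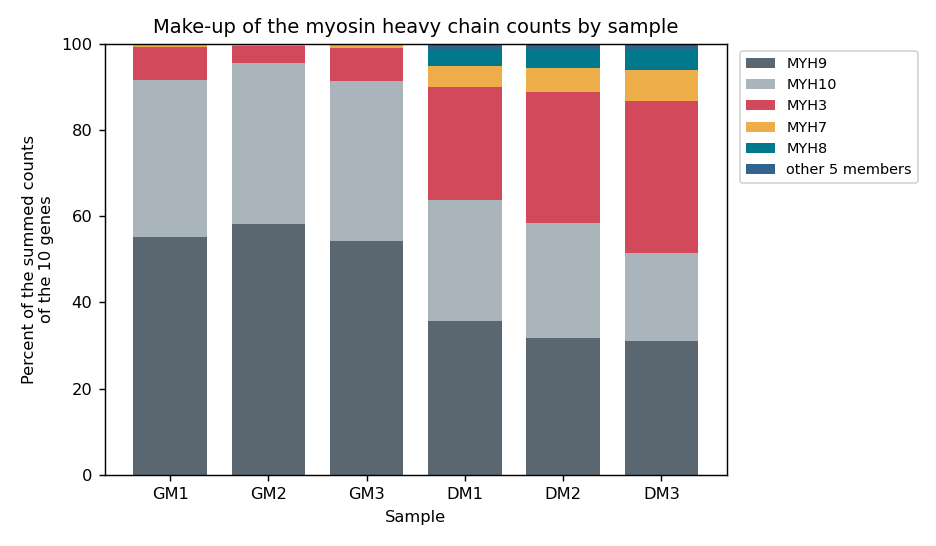
Stacked bars of the percent of the 10 members' summed counts held by each gene, 1 bar per sample from 0 to 100%. MYH9 and MYH10 (greys) fill 91.4 to 95.5% of each GM bar and 51.4 to 63.8% of each DM bar, and MYH3 (red) takes most of the rest.

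In CPM, the summed sarcomeric genes were 458, 229 and 455 in GM1, GM2 and GM3 and 2279, 2511 and 3708 in DM1, DM2 and DM3. The mean was 7.44 times higher in DM samples. Over the same samples MYH9 and MYH10 together were 5011, 4888 and 4858 CPM in GM samples and 4032, 3524 and 3924 CPM in DM samples, a ratio of 0.778. In both sums the DM samples lay on 1 side of all GM samples, as 68.8% of single tested genes did.

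Within the sarcomeric genes alone, the shares of MYH3, MYH7, MYH8 and MYH6 varied less within each group than they differed between the groups, while those of MYH1 in DM samples and of MYH7B in GM samples were uneven. MYH3 held 91.2, 90.4 and 91.0% of the 7 genes' counts in GM1, GM2 and GM3, and 72.3, 73.2 and 73.0% in DM1, DM2 and DM3. GM2, with the lowest level of each sarcomeric gene but MYH1, and DM3, with the highest level of each but MYH1, did not stand apart here. MYH7 held 6.93, 7.48 and 6.86% in GM samples and 13.7, 13.6 and 14.5% in DM samples. MYH8 held 0.452, 0.515 and 0.608% in GM samples and 11.1, 10.4 and 9.70% in DM samples, where it came next after MYH7. MYH6 held 1.38 ± 0.0133% and 2.29 ± 0.0665%. MYH4 and MYH1 each held under 1% in every sample: in DM samples MYH4 took 0.303, 0.305 and 0.259%, and MYH1 took 0.260, 0.281 and 0.0670%. The Wilson interval of the MYH1 share was 0.226 to 0.298% in DM1 and 0.0547 to 0.0822% in DM3. MYH7B held 0.0631, 0.126 and 0.139% in GM samples and 0.0611, 0.0424 and 0.0649% in DM samples, where the lowest GM value lay within the DM range. The exact permutation test gave p = 0.1 for the share of each gene but MYH7B (p = 0.2), and 0.113 and 0.2 after adjustment over 9 shares.

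**Figure D4:**
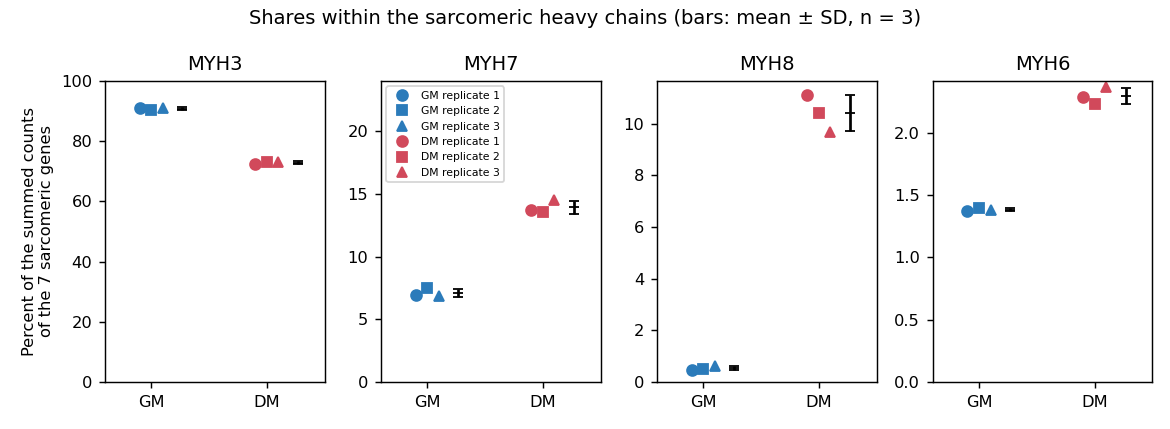
Percent of the 7 sarcomeric genes' summed counts held by MYH3, MYH7, MYH8 and MYH6 in each sample, with the mean and SD of 3 samples beside the points; each axis starts at 0 and has its own range. MYH3 holds 90.4 to 91.2% of the sum in each GM sample and 72.3 to 73.2% in each DM sample, and the other 3 genes hold larger shares in each DM sample than in each GM sample.

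Ratios between single genes, chosen after their values were seen and given without a test, describe the same difference. There were 0.496, 0.569 and 0.668 counts of MYH8 per 100 of MYH3 in GM1, GM2 and GM3, and 15.4, 14.2 and 13.3 in DM1, DM2 and DM3. MYH7 stood at 7.604, 8.27 and 7.54 per 100 counts of MYH3 in GM samples and at 18.9, 18.5 and 19.9 in DM samples. For both ratios the groups were far apart and replicates lay close together. MYH3 per 100 counts of MYH9 was less even, with 13.8, 6.95 and 14.4 in GM samples and 73.1, 95.7 and 114.6 in DM samples.

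**Figure D5:**
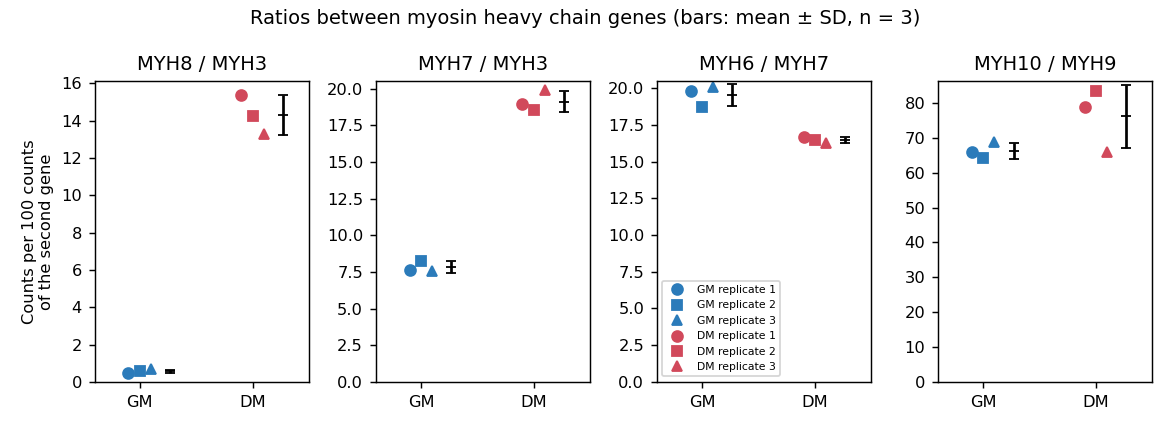
Counts of the first gene per 100 counts of the second in each sample, with mean and SD of 3 samples beside the points and axes from 0. MYH8 and MYH7 stand higher against MYH3 in each DM sample, MYH6 stays between 16.3 and 20.1 per 100 of MYH7, and the MYH10 to MYH9 ratio of DM3 (66.0) lies among the GM samples.

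Per unit of length, in the RPKM values deposited by the authors (reads scaled to gene length and to the sample's summed counts), the order of the genes was not the same in the groups. In GM samples MYH9 (488 to 514 RPKM) led, followed by MYH10 (314 to 329), MYH3 (34.9 to 70.9) and MYH7 (2.99 to 5.57), and the ranges of these neighbours did not overlap. MYH6 (0.562 to 1.11), MYH11 (0.4498 to 0.653) and MYH8 (0.205 to 0.483) came next, MYH6 overlapping MYH11 and MYH11 overlapping MYH8 in range. MYH7B lay without overlap at 0.0499 to 0.110 RPKM, and MYH4 and MYH1 overlapped at the bottom. In DM samples MYH9 (309 to 376), MYH3 (256 to 430) and MYH10 (241 to 269) overlapped in turn, and MYH3 was above MYH9 in 1 of 3 samples. MYH7 (49.98 to 88.3) and MYH8 (40.5 to 58.7) overlapped too, though MYH7 was higher in each of the 3 samples. MYH6 (8.41 to 14.5) and MYH4 (1.12 to 1.60) followed without overlap, then MYH11 (0.758 to 1.03) and MYH1 (0.403 to 1.16), which overlapped, and MYH7B (0.176 to 0.391).

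For members with a mean of at least 10 CPM, the genes with the most similar log2 CPM over the 6 samples were found by Pearson's r among 8981 genes at that level. These r values describe 6 shared libraries that fall into 2 groups, so they follow the GM and DM difference above all. For MYH7 the top 3 were TNNT1, the slow skeletal troponin T, MYH6 and RYR1, the calcium release channel of skeletal muscle, each with r of 0.9996 or more. RYR1 was also the gene most like MYH6. LDB3, a Z-disc protein, was most like MYH3 (r = 0.999), followed by ENSBTAG00000001078 and ENSBTAG00000011072, which have no symbol in the table, and ASB5, FBLN5 and TNNI2, the fast skeletal troponin I, were most like MYH8. At r above 0.99, MYH8 had 419 genes and MYH3 had 55. MYH9 was most like HERC3, GALNS and MCRS1, and MYH10 most like RUNX2, SIN3A and KLHL18. Pearson's r takes no account of the size of a change. The 3 genes named for MYH3 had log2FC values of 3.95, 2.12 and 0.31, beside 2.58 for MYH3. Those named for MYH9 had -0.21, -0.37 and -0.63, beside -0.44 for MYH9.

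Other parts of the myosin motor changed beside the heavy chains. Of 10 myosin light chain genes tested, 7 were called, all higher in DM samples, where 15.0% of all tested genes were called higher. The median log2FC of the 10 was 4.0. MYL3 passed the minimum through its DM samples and could only be called higher, and without it 6 of 9 were called, with a median of 3.85. The 2 largest log2FC values were those of MYL1, the fast essential light chain, with 194, 92 and 176 counts in GM samples and 7950, 10031 and 13286 in DM samples (log2FC 6.24), and of MYL3, the slow and ventricular essential chain. MYL3 had 1, 0 and 0 counts in GM samples and 41, 46 and 144 in DM samples, a ratio of 260 with a counting interval of 46.3 to 10325. Its log2FC of 7.53 was 9.31 without GM replicate 1 and 6.76 without DM replicate 3. MYL6, MYL9 and MYL12A, light chains of non-muscle and smooth muscle myosin, were not called, with log2FC values of -0.17, 0.47 and -0.32. MYL12B, also a light chain of non-muscle myosin, rose (1.70). The remaining light chains called higher were MYL2 (4.35), MYL4 (5.20), MYL6B (3.85) and MYLPF (4.16). Of 12 thick filament and M-band genes tested, 4 are light chains also counted above. Of the 12, 11 were called higher, beside 15.0% of all tested genes, and OBSL1 was not called. Without MYL3 these were 10 of 11. MYBPC1, a myosin-binding protein C of skeletal muscle, changed most, with 3, 6 and 5 counts in GM samples and 817, 1037 and 766 in DM samples (log2FC 7.68). As with MYH1, its lowest DM sample was DM3.

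Genes for the folding and assembly of myosin went both ways. Of 11 tested, 5 were called higher and 4 lower, where 15.0% of all tested genes were called higher and 10.3% lower. The median of the 11 was 0.40. The muscle-restricted members SMYD1 and MYBPH changed most, with log2FC values of 3.40 and 2.94, and UNC45B, the muscle myosin chaperone, had 1.77. The 4 lower genes were SMYD2, HSPA8, STIP1 and AHSA1, the last 3 being general chaperones or their partners, with values from -1.37 to -1.01, and the call of AHSA1 (-1.01) was lost without GM replicate 2 or DM replicate 2. Among 20 regulators of non-muscle myosin, 1 was called higher and 4 lower, with a median of -0.12. These 5 of 20 are near the 25.3% of all tested genes that were called. The higher one was MYLK, also a smooth muscle marker, and the lower ones were the cytokinesis genes ANLN (-1.78), RACGAP1, CIT and ECT2. ROCK1, ROCK2 and RHOA, which raise the activity of myosin II, had values between -0.27 and 0.10.

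Of 28 tested regulators of myosin genes, 11 were called higher in DM samples, 1 lower and 16 were not called. Of all tested genes, 15.0% were called higher and 10.3% lower. The median of the 28 was 0.76. MEF2C and MYF6 changed most, with log2FC values of 4.02 and 3.97. MEF2C had 236, 131 and 192 counts in GM samples and 1912, 2468 and 3768 in DM samples, an order of samples like that of MYH3 and MYH7. MYOG, the factor of terminal differentiation, had 1.66, and MYF5, a factor of the proliferating myoblast, was the 1 gene called lower (-2.70). Also called higher were NFATC1 (2.25) and SOX6 (1.56), the latter with 36, 10 and 16 counts in GM samples.

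Markers of further cell types were scarce. The summed level of the endothelial list was 13.6 to 15.7 CPM in GM samples and 14.1 to 24.4 CPM in DM samples, with 1 of 8 tested called higher and 3 lower; CDH5 and TIE1 changed most (-2.24 and -2.37), but the call of CDH5 was lost without GM replicate 1, GM replicate 2 or DM replicate 1, and that of TIE1 without these or DM replicate 2. CDH5 was at -3.17 without DM replicate 2 and TIE1 at -3.58 without DM replicate 3. TIE1 passed the minimum through its GM samples and PECAM1 through its DM samples, so each could be called in 1 direction only. Without them 1 of 6 was called higher and 2 lower, where 15.0% of all tested genes were called higher and 10.3% lower. The macrophage list summed to 6.49 to 8.63 CPM in GM samples and 7.62 to 15.1 CPM in DM samples, with LYZ at 0 in all 6 and PTPRC at 5 counts or fewer in total; CD14 (2.75) and CD68 (-1.04) were called, the latter not without GM replicate 1, GM replicate 2 or DM replicate 3, nor under the RPKM filter (an RPKM of 1 or more in over 50% of samples). The adipocyte list summed to 6.94 to 8.34 and 7.27 to 8.84 CPM. FABP4 had 0, 1 and 1 counts in GM samples and 15, 16 and 13 in DM samples, a ratio of 24.8 with a counting interval of 6.47 to 211. It passed the minimum through its DM samples and could only be called higher. PPARG had a log2FC of -3.73.

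Each member has 1 transcript in the mRNA table, with the same counts as its gene, so that table adds only another set of library sizes. edgeR over its 16352 tested transcripts called the same 7 members higher, where 15.5% of all tested transcripts were called higher, 10.1% lower and 25.6% in either direction.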

How the data were processed

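PolyA RNA-seq of 3 GM and 3 DM samples was used. The authors aligned reads with HISAT2 and deposited raw counts per gene and per mRNA transcript without normalization. The authors also deposited RPKM values, which scale the counts by the Length column and by summed counts. The paper's methods name a buffalo genome, the tables carry cattle Ensembl identifiers, and the submitters' processing notes name Bowtie 0.12.2 with mm8 and mm9, and the build of the coordinates is not given in the sources used here. Lists with the authors' own log2 fold changes and p-values, and the ncRNA table, were not used. No sample column was left unmapped.

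Counts were tested in R 4.3.3 with edgeR 4.0.16 (TMM, glmQLFit and glmQLFTest, features with at least 10 counts in total, Benjamini-Hochberg adjustment over all of them). Standard errors come from the F statistic. Shares were compared with exact two-sided permutation tests (scipy 1.17.1). Intervals and floors cover counting error only. Totals of 35615864 to 40305237 counts per sample limit the precision of genes with few counts. On simulated data with 200 genes changed 4-fold among 15576, edgeR recovered 170 and called 4 unchanged genes. Among 16352 transcripts it recovered 175 and called 4. Both simulations changed far fewer features than were called in the data (3936 genes and 4184 transcripts), so their error rates need not hold for the data.

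The members and gene lists (other heavy chains, light chains, thick filament, folding, non-muscle regulators, myosin gene regulators and 6 lists of cell type markers besides muscle stem cells) were chosen with earlier results of these data known. Named genes are the members, the other heavy chain genes, the 2 called genes of each list with the largest absolute log2 fold change, markers at 0, genes overlapping a member and the 3 most similar genes. Further names were chosen after values were seen. Alternatives were DESeq2 1.42.0, other normalizations and filters, no minimum fold change, RPKM or transcript counts for shares, a replicate block and each sample left out. Leaving out GM2 and DM3 together, and adding other heavy chain genes to the sums, were added after seeing the data. No sequences were used.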

Additional observations from a re-analysis of the deposited data

How the results depend on the processing

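The same 7 members were called higher with library size alone, DESeq2's size factors, DESeq2, no filter, filterByExpr, the replicate block, each sample left out in turn and GM2 and DM3 left out together. A filter that asks for an RPKM of 1 or more in over 50% of samples left 5 members to test, of which 3 were called, because fewer members were tested. With no minimum fold change 10 members passed, 8 higher and 2 lower. No member changed direction. For transcripts the count was 7 under each alternative run. In the replicate block the members' calls did not change. The deviations of same-numbered GM and DM samples had r of -0.0076, -0.022 and -0.010 across genes. Those of differently numbered samples had r of -0.012 to 0.024. Such small values cannot decide whether the numbers pair the samples, since paired samples that differ little would give them as well. The block gave 3837 called genes in place of 3936. The RPKM filter gave 2197, and the adjusted p alone, with no minimum fold change, gave 9813.

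The difference in the sarcomeric share, 34.9 percentage points, was 31.7 to 37.9 when single samples were left out, 30.3 without GM2 and DM3, 35.3 in RPKM and 34.9 as differences within replicate numbers in the block (exact permutation p = 0.25, the smallest 3 pairs allow). The difference in the MYH3 share of sarcomeric counts, -18.0 points, was -18.2 to -17.8 with single samples left out. Called endothelial markers numbered 2 to 4 and called macrophage markers 1 to 2 with single samples left out. TIE1 also lost its call with DESeq2 and with the replicate block, CD68 and AHSA1 with the RPKM filter, AHSA1 with filterByExpr, and CD68 and TNNI3 with GM2 and DM3 left out together. MYH7B was at 1.42 in that last setting, against 2.01. In the other lists the number of calls stayed within 1.5 times under the alternatives run. Library size alone moved the median of all genes from 0.03 to -0.07. Genes with few counts in GM samples, MYH1, MYH4 and MYH13, have fold changes limited by depth.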
